A study of Cricetulus griseus with 3 samples.

Results

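The genes described here are the chromatin genes of a mouse cDNA array, chosen by their names. A spot was taken when its annotation gave 1 gene symbol and that symbol began with Hdac, Sin3, Sinhcaf, Ing, Kat, Brd, Ezh, Setd, Kmt, Kdm, Dnmt, Smarc, Chd, Baz, Cbx, Hmga, Hmgb or Hmgn, with a number after the letters where the family name needs one. The annotation used here gave no spot a symbol that began with Suv. The names covered 189 spots and 94 genes, out of 16928 spots tested and 8146 genes with a value. Not all 94 genes encode enzymes or remodelers, since the HMG and chromobox proteins bind nucleosomes or DNA, the bromodomain proteins read acetylated histones, and the DNA methyltransferases modify DNA and not histones.

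S-1 cells are a Chinese hamster ovary (CHO) line derived from the CHO γ-30 line. They stably carry PS1, Flag-PEN2, APH1-a2-HA and NCT-GST, the subunits of the membrane protease γ-secretase, and were grown under the selection drugs of these constructs with 0.05% DMSO for 24 h. The study also marks APP, a γ-secretase substrate, as overexpressed in S-1 cells. They were set against the untransfected parental CHO cells, which received 10 µM DAPT, a γ-secretase inhibitor, in 0.05% DMSO for 24 h, with 1 culture of each on each of 3 arrays from 3 independent experiments. Every value is a log2 ratio, S-1 over DAPT-treated CHO, with S-1 RNA in Cy3 on arrays 1 and 2 and in Cy5 on array 3. S-1 is a single line, and the line, constructs, selection drugs and inhibitor differed together, so that their parts in a ratio cannot be told apart. Hamster RNA was hybridised to mouse clones. The ratios hold no levels, so neither the abundance of these mRNAs nor the ovarian origin of the cells could be read from them, and fewer cells with an mRNA and less of it per cell cannot be told apart.

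Chromatin is DNA wound on histone octamers. Acetyltransferases and methyltransferases add marks to histone tails, deacetylases and demethylases take them off, and reader proteins such as bromodomain and chromobox proteins bind the marked tails. ATP-dependent remodelers slide or evict nucleosomes, and HMG proteins bend DNA or loosen the fibre. Most of the enzymes act as subunits of large complexes, among them SIN3, NuRD, Polycomb and SWI/SNF.

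More chromatin genes fell than rose in S-1 cells. A gene or spot passed when its Benjamini-Hochberg adjusted p in limma, over all genes or spots tested, was under 0.005. Of the 94 genes, 18 (19.1%) were lower and 3 (3.19%) were higher in S-1 cells, and 73 did not pass. Of all 8146 genes, 10.3% were lower and 12.4% higher. The median gene value of the chromatin genes was -0.04, against 0.01 for all genes, and 56 of the 94 lay below 0 (59.6%, against 48.1% of all genes). At the level of spots, 34 of 189 (18%) were lower and 4 (2.12%) higher, where 8.52% of all tested spots were lower and 9.68% higher.

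**Figure D1:**
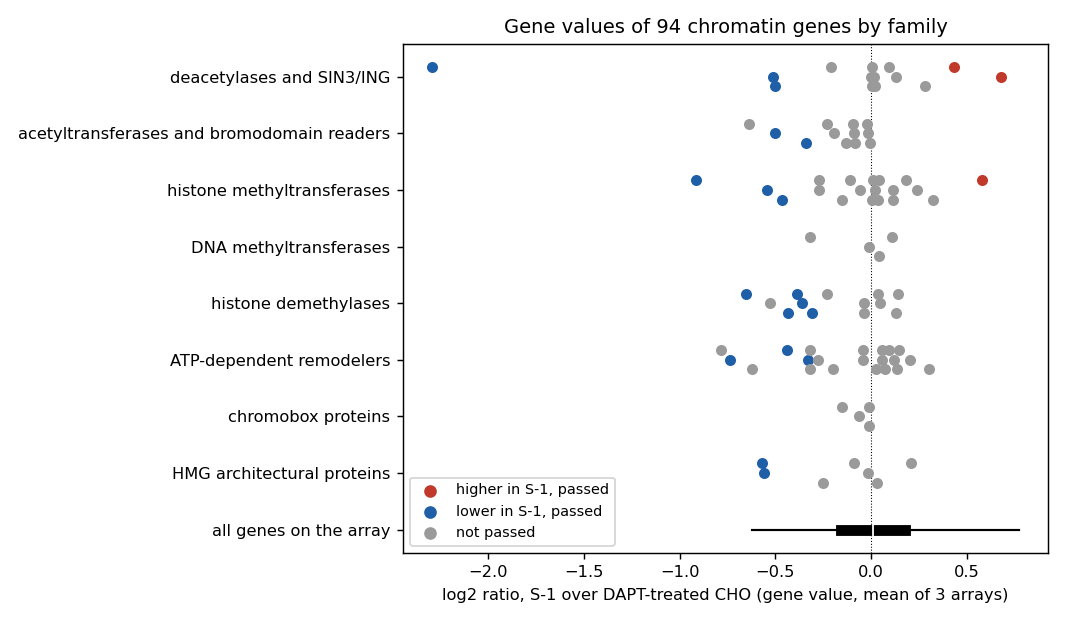
Gene values (log2 ratio, S-1 over DAPT-treated CHO, mean of 3 arrays) of the 94 chromatin genes by family, each point 1 gene, coloured by whether it passed. The bottom bar gives all 8146 genes (white line, median; thick bar, 25th to 75th percentile; thin line, 5th to 95th percentile), and Sinhcaf stands alone at -2.29.

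Most changes were small. The smallest absolute log2 ratio of a passed spot was 0.34, and 5 of the 38 passed spots exceeded 1. The 38 passed spots each had the same sign on all 3 arrays, as did 127 of the 189 chromatin spots (67.2%, against 67.6% of all tested spots). Array 3 lay nearer 0 than both other arrays for 19 of the 34 lower spots. The same share over all lower spots of the array was not counted, so this is not shown to be particular to chromatin spots. The dye orientation of array 3 and its experiment cannot be told apart. The calls varied with the array left out. Leaving out array 1 kept 13 of the 38 passed spots, leaving out array 2 kept 2 and leaving out array 3 kept 38. No passed spot changed sign or moved by over 1.5 times when an array was left out. Without array 2, 19 chromatin spots were higher and 56 lower at an unadjusted p under 0.05. Counts at this unadjusted threshold, here and below, were made for chromatin and partner genes only. They have no share over the whole array beside them and cannot show an excess among the chromatin genes.

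Different clones of a gene often disagreed. Of the 53 chromatin genes with 2 or more spots, 20 had at least 1 passed spot, where 37.2% of such genes on the whole array did. All spots passed in 4 of these 20 (20%, against 22.1% for all genes), namely Hdac5, Ezh1, Setdb1 and Kdm2b. Spots lay on both sides of 0 in 7 (35%, against 37.6%), namely Sin3a, Hdac3, Smarca4, Smarcc1, Hmga2, Kat14 and Cbx5, and none of these had passed spots in both directions. A gene value, the mean over the gene's spots, therefore mixes unlike clones in these genes. Which transcript or relative each clone detects in hamster RNA was not tested.

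Among the histone deacetylases and their SIN3 and ING partners, the SIN3 complex held the largest decrease. Of 14 genes 3 fell (Sinhcaf, Sin3a and Hdac5; 21.4%, against 10.3% of all genes), 2 rose (Hdac3 and Hdac6; 14.3%, against 12.4%) and 9 did not pass, with a median gene value of 0.01. Sinhcaf, a subunit of the SIN3-HDAC complex, was eighth from the lowest among the 8146 gene values, at -2.29 ± 0.15 (SD over 3 arrays, as for all errors below; adjusted p = 0.000136). Its second spot read -4.54, -3.99 and -4.50 on arrays 1, 2 and 3, a mean of -4.34 ± 0.31 or 20.3-fold lower in S-1 cells (adjusted p = 0.000117). The third spot read -2.84, -2.34 and -2.34 and averaged -2.50 ± 0.29, 5.68-fold lower (adjusted p = 0.000163). The first spot, in contrast, lay within 0.1 of 0 at 0.09, -0.09 and -0.09. The 2 low spots were also the only chromatin spots that still passed without array 2.

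Sin3a, the scaffold on which this complex assembles, was lower on 3 of its 4 spots. The first read -1.11, -0.92 and -0.71 (mean -0.91 ± 0.20, adjusted p = 0.00132), the third -0.72, -0.61 and -0.49 (mean -0.61 ± 0.12, adjusted p = 0.00166) and the fourth -0.71, -0.66 and -0.42 (mean -0.59 ± 0.15, adjusted p = 0.00272). On all 3 of these spots array 3 was nearest 0. The second spot read 0.13, -0.01 and 0.06, and the gene value was -0.51 ± 0.11 (adjusted p = 0.00206). The paralogous scaffold Sin3b had a gene value of 0.09 ± 0.02 and did not pass (adjusted p = 0.135).

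The deacetylases themselves moved in both directions. Both spots of Hdac5, a deacetylase that shuttles between nucleus and cytoplasm, were lower. They read -0.62, -0.81 and -0.57 (mean -0.66 ± 0.13, adjusted p = 0.00137) and -0.31, -0.39 and -0.31 (mean -0.34 ± 0.04, adjusted p = 0.00416). Hdac6, which acts mainly on tubulin and other cytoplasmic proteins, was higher. Its first spot read 0.43, 0.45 and 0.66 (mean 0.51 ± 0.12, adjusted p = 0.00296), its second 0.31, 0.46 and 0.29 (mean 0.35 ± 0.10, adjusted p = 0.00656), and the gene value was 0.43 ± 0.05 (adjusted p = 0.00169).

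Hdac3, the catalytic subunit of the NCoR and SMRT corepressor complexes, rested on 1 clone. Its second spot read 1.19, 1.51 and 1.66, a mean of 1.46 ± 0.24 or 2.75-fold higher in S-1 cells (adjusted p = 0.000506). Its first spot read -0.05, -0.06 and -0.19 (mean -0.10 ± 0.08, adjusted p = 0.177). The gene value of 0.68 ± 0.09 passed (adjusted p = 0.00076), but the high spot was 1 of 1568 spots left out as an alternative (the last positions of each print-tip block and 1 position further in, where this spot lay), and the gene value without them was -0.10 (adjusted p = 0.148). Both Hdac5 spots, the fourth Sin3a spot and the second Ezh1 spot lay at these positions too. Without them 2 of 93 chromatin genes were higher and 16 lower (2.15% and 17.2%), against 8% and 10.7% of all genes.

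Hdac1 and Hdac2, the nuclear deacetylases of the SIN3 and NuRD complexes, gave no call. Hdac1 had a gene value of 0.28 ± 0.16 (adjusted p = 0.0297). Hdac2 was at 0.00, with a 95% interval of -0.18 to 0.19, but its 2 spots differed. The first read 0.06, 0.05 and -0.88 (mean -0.26) and the second 0.10, 0.17 and 0.53 (mean 0.27). They parted on array 3, and the gene value of Hdac2 stood for neither clone. Among 17 measured partners of the NuRD, SIN3 and CoREST complexes, Gatad2b (0.48 ± 0.15, adjusted p = 0.00421) and Brms1 (0.42 ± 0.10, adjusted p = 0.00359) rose (11.8%, against 12.4% of all genes). None of the partners fell in limma, against 10.3% of all genes, and 3 were lower at an unadjusted p under 0.05. Leaving out array 1 kept 4 of the 9 passed spots in this family, leaving out array 2 kept 2 and leaving out array 3 kept 9.

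**Figure D2:**
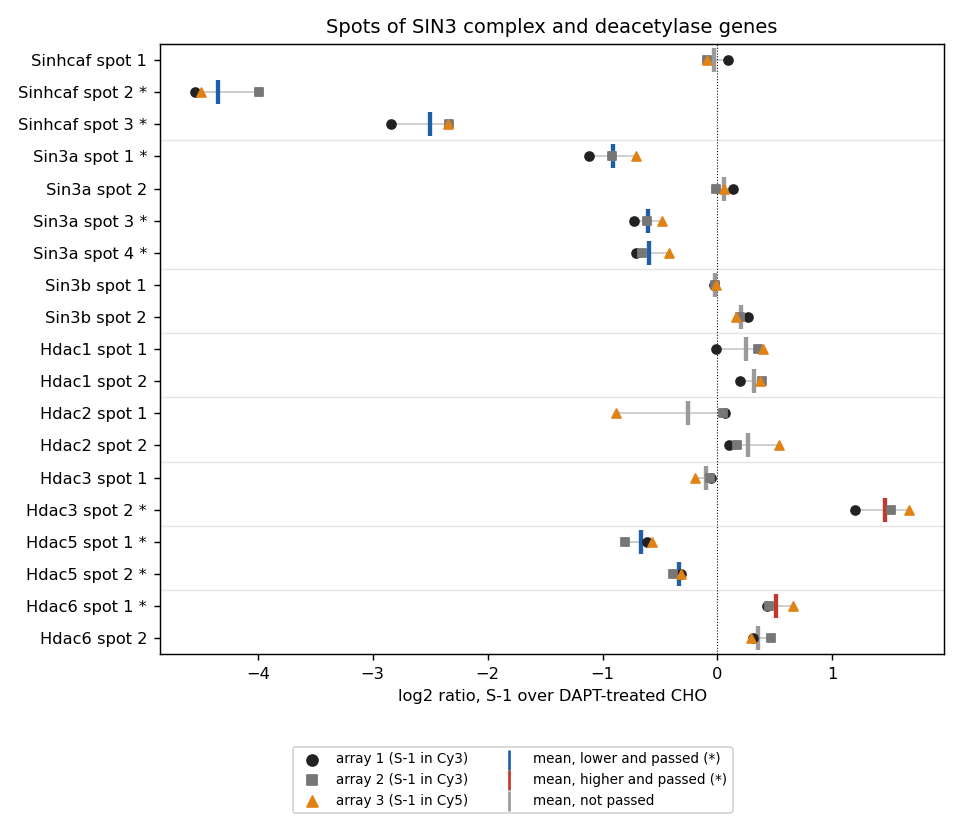
Log2 ratio (S-1 over DAPT-treated CHO) of each spot of the SIN3 and selected deacetylase genes, with 1 symbol per array and a bar at the mean. Sinhcaf spots 2 and 3 lie at -4.34 and -2.50 while its spot 1 lies at -0.03, and the 2 Hdac3 spots part at -0.10 and 1.46.

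On the chromosome, Sinhcaf lay among other genes with low ratios. Gene order was read from the Chinese hamster RefSeq annotation, after the values had been seen. Of the 10 nearest protein-coding genes, 5 on each side, 4 had a value on the array. Amn1, 3 genes away, read -3.75, -3.49 and -3.62 (mean -3.62 ± 0.13, adjusted p = 0.000135). Resf1, 5 genes away on the same side, read -1.63, -1.46 and -1.69 (mean -1.60 ± 0.12, adjusted p = 0.000148). Both genes were below 0 on every array, as was the gene value of Sinhcaf, although not its first spot. Ipo8, an importin gene 2 genes away on the other side, averaged -0.51 ± 0.09 (adjusted p = 0.00162), and Tmtc1, 5 genes away on that side, averaged 0.04 ± 0.01 (adjusted p = 0.517). Around the other 23 chromatin genes with a passed value whose place was found, 94 neighbours had a value. Of these, 8 (8.51%, against 10.3% of all genes) were lower and 13 higher (12.4% of all genes were), and the lowest was -0.95. The higher neighbours include 2 near Kmt2b, itself a higher gene, and 2 near Setdb1, a lower gene. Hdac5, a lower gene, had 2 lower neighbours and 1 higher. Those near Kmt2b were Psenen at 3.09, whose PEN2 construct S-1 cells carry, 3 genes away, and Lin37 (1.15 ± 0.32, adjusted p = 0.00189), 4 genes away.

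**Figure D3:**
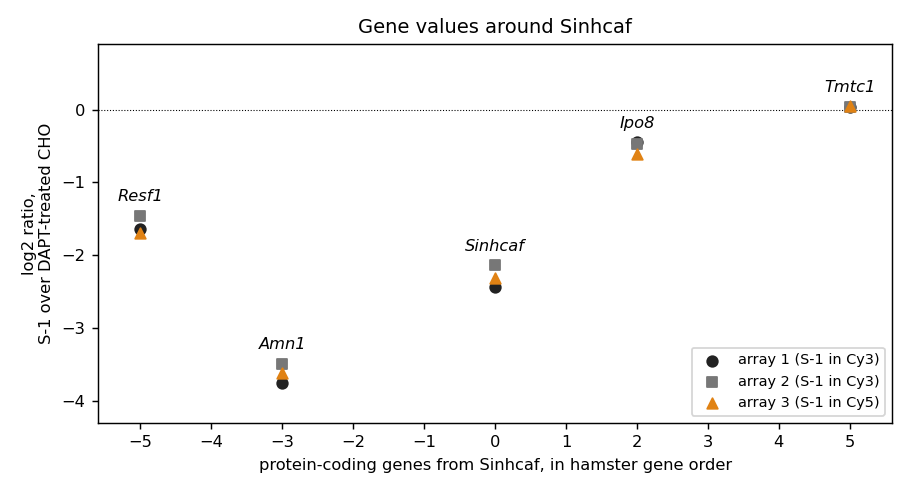
Log2 ratio (S-1 over DAPT-treated CHO) on each array for Sinhcaf and the measured genes within 5 protein-coding genes of it in the hamster gene order. Resf1, Amn1, Sinhcaf and Ipo8 lie below 0 on all 3 arrays and Tmtc1 at 0.04.

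The acetyltransferases and bromodomain readers had no higher gene. All 12 gene values were below 0, where 48.1% of all genes were, with a median of -0.11, and 2 passed as lower (16.7%, against 10.3% of all genes). Kat6b, the catalytic subunit of a MOZ/MORF-type acetyltransferase complex, fell to -0.50 ± 0.13 (arrays -0.45, -0.40 and -0.65, adjusted p = 0.00291). Brd2, a BET protein that binds acetylated histones, fell to -0.34 ± 0.05 (arrays -0.39, -0.34 and -0.30, adjusted p = 0.00329). None of the 12 rose in limma, and 0 were higher at an unadjusted p under 0.05. Kat14, a subunit of the ATAC complex, had 1 passed spot of 4 (arrays -0.53, -0.36 and -0.54, adjusted p = 0.00269) and a gene value of -0.23 ± 0.04 that did not pass (adjusted p = 0.011). Kat2a, the GCN5 enzyme, had the lowest value of the family at -0.64 ± 0.30, but its arrays spread over -0.51, -0.42 and -0.99 and it did not pass (adjusted p = 0.0102). No passed spot of this family was kept with array 1 or array 2 left out, and all 3 were with array 3 left out.

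Among 26 measured partners of the acetyltransferase complexes, 5 genes fell (19.2%, against 10.3% of all genes) and 1 rose (3.85%, against 12.4%). Morf4l1, a chromodomain subunit of the NuA4 complex, read -1.37, -1.44 and -1.10 (mean -1.31 ± 0.18, adjusted p = 0.000321). Trrap, the scaffold shared by NuA4 and SAGA, read -1.14, -0.86 and -0.90 (mean -0.97 ± 0.15, adjusted p = 0.000562). Every array of both genes lay below 0. In the MSL complex, which acetylates histone H4, Msl1 fell (-0.84 ± 0.08, adjusted p = 0.000325) while Msl3 rose (0.43 ± 0.06, adjusted p = 0.00174). Yeats2 of the ATAC complex (-0.59 ± 0.04, adjusted p = 0.000609) and Jade1 of the HBO1 complex (-0.39 ± 0.08, adjusted p = 0.00345) fell too. The median of the 26 was 0.01, the same as that of all genes.

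Among 19 genes of the histone methyltransferase names, 3 fell (15.8%, against 10.3% of all genes), 1 rose (5.26%, against 12.4%) and 15 did not pass, with a median of 0.01. Ezh1 and Ezh2, the alternative catalytic subunits of Polycomb repressive complex 2, lay on opposite sides of 0. Ezh1 read -0.99, -1.02 and -1.06 on its first spot (mean -1.02 ± 0.03, 2.03-fold lower in S-1 cells, adjusted p = 0.000154) and -0.72, -0.92 and -0.78 on its second (mean -0.80 ± 0.10, adjusted p = 0.000585). Its gene value of -0.91 ± 0.05 (adjusted p = 0.0002) was the second lowest of the 94. Ezh2 read 0.37, 0.62 and 0.25 on its first spot and 0.09, 0.22 and 0.39 on its second. All 6 values were above 0, but the gene value of 0.32 ± 0.10 did not pass (95% interval 0.18 to 0.46, adjusted p = 0.00735). The difference between Ezh1 and Ezh2 was not tested.

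Other Polycomb subunits moved both ways. Of 17 measured partners 11.8% were higher and 17.6% lower, against 12.4% and 10.3% of all genes. Pcgf1 (0.87 ± 0.05, adjusted p = 0.000216), a ring-finger subunit of a variant Polycomb complex 1, and Mtf2 (0.44 ± 0.10, adjusted p = 0.0031), an accessory subunit of complex 2, rose. Asxl1 (-0.67 ± 0.16, adjusted p = 0.00184), Rybp (-0.52 ± 0.06, adjusted p = 0.00107) and Jarid2 (-0.31 ± 0.04, adjusted p = 0.00415) fell. The other 12 did not pass.

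Setdb1, which methylates histone H3 in heterochromatin and at silenced retroelements, was lower on all 4 of its spots. They averaged -0.46 (arrays -0.49, -0.44 and -0.47), -0.41 (arrays -0.40, -0.44 and -0.40), -0.60 (arrays -0.66, -0.69 and -0.44) and -0.70 (arrays -0.78, -0.75 and -0.59). No spot of Setdb1 came nearer to 0 than -0.40 on any array, and the gene value was -0.54 ± 0.06 (adjusted p = 0.000948). Setd2, which writes a histone H3 mark along transcribed genes, read -0.86, -0.66 and -0.61 on its first spot (mean -0.71 ± 0.13, adjusted p = 0.00126) and averaged -0.23 ± 0.06 on its second (adjusted p = 0.0173), with a gene value of -0.47 ± 0.09 (adjusted p = 0.00215).

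Kmt2b, an MLL-family enzyme that methylates histone H3 at promoters, was the methyltransferase that rose. Its single spot read 0.55, 0.58 and 0.60 (mean 0.58 ± 0.03, 1.49-fold higher in S-1 cells, spot adjusted p = 0.000767). Its relative Kmt2c, which acts mainly at enhancers, had 1 passed spot of 3 (arrays -0.58, -0.52 and -0.36, adjusted p = 0.00293) and a gene value of -0.27 ± 0.04 (adjusted p = 0.00625). Among 24 measured partners and methylation enzymes with other names, Ash2l, a core subunit of the MLL complexes (0.49 ± 0.06, adjusted p = 0.00128), and the methyltransferase Dot1l (0.35 ± 0.05, adjusted p = 0.00311) rose. The histone methyltransferase Ehmt1 fell (-0.47 ± 0.15, adjusted p = 0.00468). Of these 24 genes 8.33% were higher and 4.17% lower, against 12.4% and 10.3% of all genes. Leaving out array 1 kept 2 of the 9 passed spots of the methyltransferase names, leaving out array 2 kept 0 and leaving out array 3 kept 9.

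Among the 13 demethylase genes 5 fell (38.5%, against 10.3% of all genes), with a family median of -0.23. Of their 31 spots 22.6% were lower, against 8.52% of all tested spots. None rose in limma, and 1 was higher at an unadjusted p under 0.05. Kdm2b, which binds CpG islands and joins a variant Polycomb complex, was lower on both spots. They read -0.66, -0.74 and -0.52 (mean -0.64 ± 0.11, adjusted p = 0.00128) and -0.76, -0.80 and -0.45 (mean -0.67 ± 0.19, adjusted p = 0.00312). Kdm3a, a JmjC-domain demethylase of histone H3, was lower on 2 of 3 spots. These read -0.78, -0.70 and -0.71 (mean -0.73 ± 0.05, adjusted p = 0.000428) and -0.62, -0.46 and -0.59 (mean -0.56 ± 0.08, adjusted p = 0.00138), while the other averaged -0.02 ± 0.05. Kdm4b, another JmjC enzyme, had 1 passed spot of 2 (arrays -0.45, -0.45 and -0.54, adjusted p = 0.00151) and a gene value of -0.31 ± 0.04 (adjusted p = 0.00435).

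The remaining 2 demethylase calls, like that of Kdm4b, lay close to the threshold. Kdm1b, a flavin-dependent enzyme, had 1 spot at -0.39 ± 0.10 (arrays -0.49, -0.39 and -0.29, gene adjusted p = 0.00402). Kdm4a had 1 spot at -0.36 ± 0.10 (arrays -0.41, -0.25 and -0.42) that passed in the fit of genes (adjusted p = 0.00495) and not in the fit of spots (adjusted p = 0.00607). Kdm5b had 1 passed spot of 2 (arrays -0.39, -0.31 and -0.31, adjusted p = 0.00445) and a gene value of -0.23 that did not pass. Its relative Kdm5c had the largest absolute value of any chromatin spot that did not pass, at -0.97, -1.22 and -0.47 (mean -0.89 ± 0.38, adjusted p = 0.00751). Kdm1a, Kdm2a, Kdm5a, Kdm6a, Kdm6b and Kdm7a had gene values between -0.04 and 0.14, and none of them passed. Leaving out array 1 kept 1 of the 7 passed demethylase spots, leaving out array 2 kept 0 and leaving out array 3 kept 7.

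**Figure D4:**
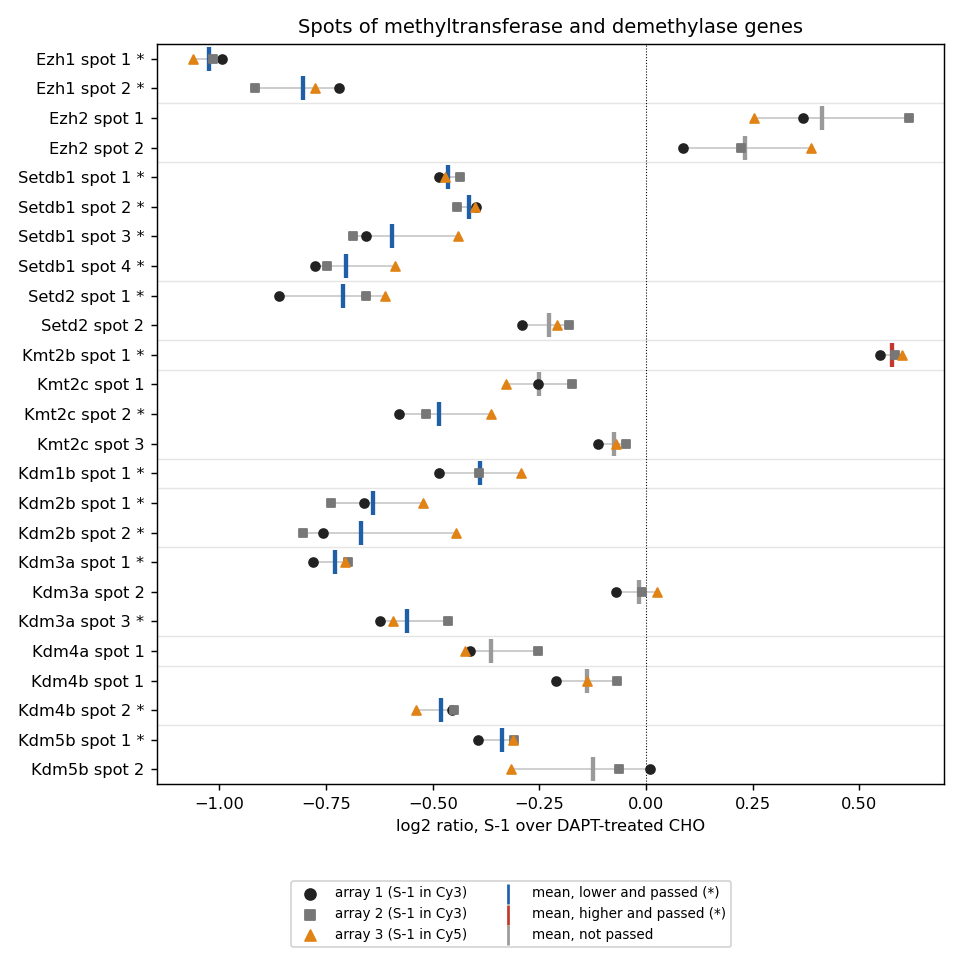
Log2 ratio (S-1 over DAPT-treated CHO) of each spot of the methyltransferase and demethylase genes with a passed call, and of Ezh2, with 1 symbol per array and a bar at the mean. Both Ezh1 spots, all 4 Setdb1 spots and both Kdm2b spots lie left of 0 on every array, while Kmt2b and Ezh2 lie right of 0.

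The 4 DNA methyltransferase genes gave no call among 8 spots. At an unadjusted p under 0.05 limma gave 0 higher genes and 1 lower, Dnmt1, the maintenance enzyme, at -0.32 ± 0.16 (arrays -0.50, -0.26 and -0.20, 95% interval -0.50 to -0.14, adjusted p = 0.0182). The de novo enzymes Dnmt3a and Dnmt3b had gene values of 0.11 (95% interval -0.01 to 0.23) and 0.04 (95% interval -0.07 to 0.15).

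Of the 21 genes of the ATP-dependent remodelers, 3 fell (14.3%, against 10.3% of all genes), none rose in limma (3 were higher at an unadjusted p under 0.05) and 18 did not pass, with a median of -0.04. Of their 40 spots 7.5% were lower, against 8.52% of all tested spots. Smarca2 and Smarca4 are the alternative ATPases of the SWI/SNF complexes, and both were lower as genes but not on every clone. Smarca2 read -0.75, -0.79 and -0.73 on its second spot (mean -0.76 ± 0.03, 1.69-fold lower in S-1 cells, adjusted p = 0.000354) and -0.17, -0.01 and -0.20 on its first. Smarca4 read -0.89, -0.88 and -0.51 on its first spot (mean -0.76 ± 0.21, adjusted p = 0.00262), 0.26, 0.20 and -0.18 on its second and -0.37, -0.36 and -0.23 on the third. The gene values were -0.44 ± 0.03 for Smarca2 (adjusted p = 0.00134) and -0.33 ± 0.02 for Smarca4 (adjusted p = 0.00304). With the median over spots in place of the mean, Smarca4 was at -0.32 and did not pass (adjusted p = 0.00594).

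The core SWI/SNF subunit Smarcc1 was split between clones. Its first spot read 0.57, 0.69 and 0.82 (mean 0.69 ± 0.12, adjusted p = 0.0012), its second averaged -0.27 ± 0.04 (adjusted p = 0.00884) and the third -0.35 ± 0.17 (adjusted p = 0.0205). The gene value of 0.03 thus stood for no single clone. Smarce1, a DNA-binding subunit, read 0.25, 0.30 and 0.35 and did not pass (gene value 0.30 ± 0.05, adjusted p = 0.0051). Of 19 measured partners of SWI/SNF and INO80, Uchl5 (0.86 ± 0.05, adjusted p = 0.000237), Ruvbl1 (0.68 ± 0.12, adjusted p = 0.00105) and Actr8 (0.40 ± 0.06, adjusted p = 0.00228) rose. All 3 are subunits of the INO80 complex, whose ATPase Ino80 itself fell (-0.44 ± 0.13, adjusted p = 0.00447). The INO80 subunits Ruvbl2 (0.06) and Ino80e (0.16) did not pass. Of the 19 partners 15.8% were higher and 5.26% lower, against 12.4% and 10.3% of all genes.

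In the CHD and ISWI families, Chd8, which also binds β-catenin, was lower. Its second spot read -1.38, -1.15 and -0.81 (mean -1.11 ± 0.29, 2.16-fold lower in S-1 cells, adjusted p = 0.00171) and its first -0.49, -0.28 and -0.32 (mean -0.36 ± 0.11, adjusted p = 0.00743). The gene value was -0.74 ± 0.19 (adjusted p = 0.00184). Smarca1, an ISWI-type ATPase, had the third lowest gene value of the 94, at -0.78 ± 0.32, but read -0.90, -1.02 and -0.42 and did not pass (adjusted p = 0.00595). Chd9 did not pass either at -0.62 ± 0.24 (adjusted p = 0.00558), and both its spots were nearest 0 on array 3. Leaving out array 1 kept 3 of the 4 passed spots of the remodelers, leaving out array 2 kept 0 and leaving out array 3 kept 4.

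The chromobox genes gave no call as genes, with 4 values between -0.15 and -0.01 (0 higher and 1 lower at an unadjusted p under 0.05 in limma). Cbx5, the heterochromatin protein HP1α, had 1 passed spot of 3 at -0.57, -0.41 and -0.37 (mean -0.45 ± 0.10, adjusted p = 0.00343), while the others averaged 0.07 and -0.07. With array 1 or array 2 left out it did not pass.

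Among the 7 HMG genes, 2 fell (28.6%, against 10.3% of all genes), none rose in limma (1 was higher at an unadjusted p under 0.05) and 5 did not pass. Hmga2, an AT-hook protein known from embryonic and tumour cells, was lower on 4 of its 6 spots. The first read -1.0, -0.83 and -0.86, the third -0.99, -0.61 and -1.01, the fourth -1.11, -0.97 and -0.92, and the fifth -0.99, -0.85 and -0.87. These 4 spots averaged -0.90, -0.87, -1.0 and -0.90, which is 1.83- to 2-fold lower in S-1 cells, with adjusted p between 0.0003 and 0.00189. The second spot read 0.20, 0.18 and 0.12 and the sixth 0.09, 0.09 and 0.19, so that they did not overlap with the 4 low spots on any array. The gene value over all 6 was -0.56 ± 0.07 (adjusted p = 0.000946).

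Hmgn2, which binds nucleosomes and loosens the chromatin fibre, read -0.60, -0.60 and -0.52 on its single spot (gene value -0.57 ± 0.05, 1.48-fold lower in S-1 cells, adjusted p = 0.000737). Its relative Hmgn1 lay at -0.25 ± 0.05 and did not pass (adjusted p = 0.00919). Hmgb1, a DNA-bending protein with 6 spots, had a gene value of -0.09 (95% interval -0.22 to 0.04) and no passed spot. Leaving out array 1 kept 3 of the 5 passed HMG spots, leaving out array 2 kept 0 and leaving out array 3 kept 5.

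**Figure D5:**
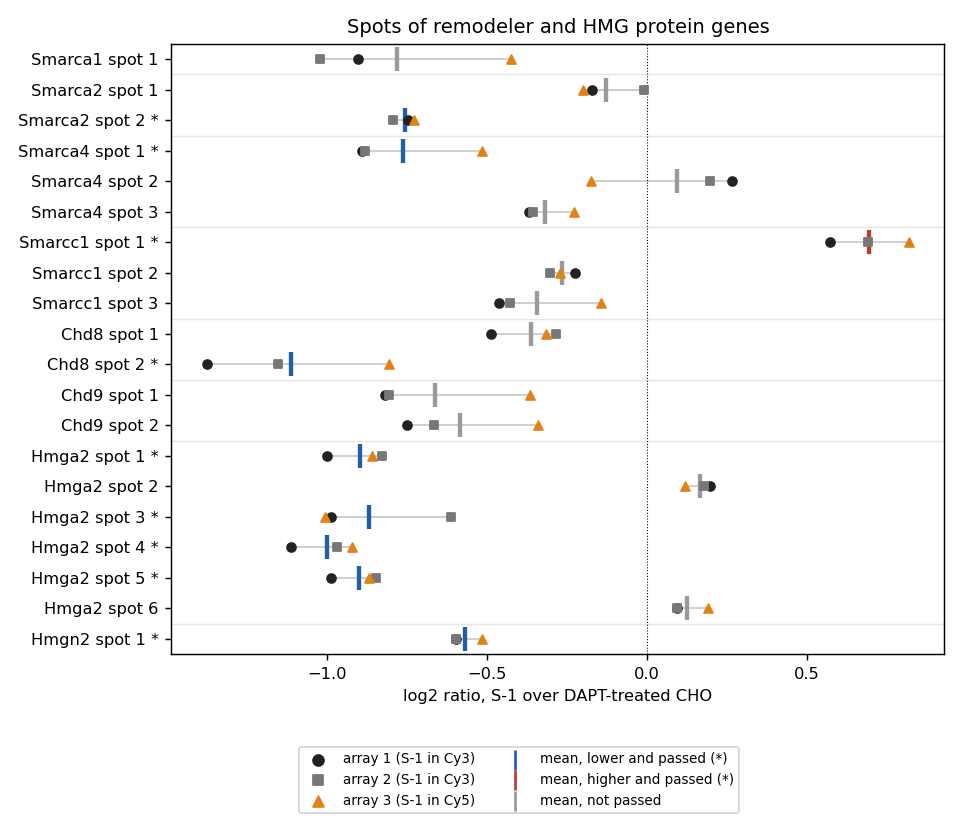
Log2 ratio (S-1 over DAPT-treated CHO) of each spot of selected remodeler and HMG genes, with 1 symbol per array and a bar at the mean. The Hmga2 spots fall into 4 between -0.87 and -1.0 and 2 at 0.13 and 0.16, and the 3 Smarcc1 spots lie on both sides of 0.

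Over the 7 lists of partner genes, which share the complexes but not the names, 127 of 183 had a value. Of these 13 (10.2%) were higher, 10 (7.87%) were lower and 104 did not pass, with a median of 0.03, where the genes chosen by name had 3.19% higher and 19.1% lower. The difference between the partner genes and the genes chosen by name was not tested. Of all genes, 12.4% were higher and 10.3% lower. The constructs could be seen in the same ratios: Psenen, the mouse clone for PEN2, averaged 3.09 ± 0.25 and Aph1a 2.02 ± 0.16, both above 0 on all 3 arrays, while Ncstn averaged 0.38 ± 0.25 and did not pass (adjusted p = 0.0352).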

How the data were processed

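RNA of S-1 cells and of DAPT-treated CHO cells was compared on 3 arrays of mouse cDNA clones. The log2 ratios used here, 1 per spot and array, are those the authors deposited after print-tip lowess without background subtraction. They are run as S-1 over DAPT-treated CHO, since the clones of the transfected Psenen and Aph1a are above 0 on every array and the dye-swapped array 3 correlates positively with the others (Pearson's r over tested spots 0.878 and 0.892). Intensities were not used, so signal over background is unknown, and precision is limited by the number of arrays. The p-values measure the spread between these cultures.

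Of 17664 spots, 736 control spots were left out. They lie at 23 positions of each of 32 print-tip blocks, carry no gene name and turn sign with the dye. limma 3.58.1 in R 4.3.3 fitted 1 coefficient against 0 with empirical Bayes variances (3.05 prior degrees of freedom for spots and 2.96 for genes) and Benjamini-Hochberg adjustment at the study's threshold of 0.005. Gene values, the means over spots with 1 gene symbol, were fitted likewise. Tables were made in Python 3.11.15 with pandas 2.3.3, NumPy 2.4.6 and SciPy 1.17.1, and plots with Matplotlib 3.10.9. The fit was tested on simulated data.

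The members and lists were chosen with earlier results of these data known. Genes were named when the gene value or any spot passed, when among the 5 largest or 5 smallest gene values, or when spots differed in sign with at least 1 passed. Partner genes were named when they passed. Kdm5c, Hdac1, Hdac2, Sin3b, Dnmt1, Dnmt3a, Dnmt3b, Chd9, Kat2a, Hmgn1, Hmgb1, the neighbours of Sinhcaf and the other Kdm genes were named after their values were seen.

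The alternatives were a threshold of 0.05, arrays centred, scaled or quantile-normalised, a robust prior, array weights, a coefficient for the dye, the median of spots, control spots included, positions shifted by over 0.5 left out, and each array left out. Added after the values were seen was leaving out positions 505 to 552 and 373 of each block (1568 spots). Names and gene order of the Chinese hamster come from RefSeq (CriGri-PICRH assembly), in which 87 of the 94 genes were found by symbol or synonym. Gene order was taken from the start positions in that annotation. No coordinates or sequences are given here, and no sequences were used.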

Additional observations from a re-analysis of the deposited data

How the results depend on the processing

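With 3 arrays the number of calls varied with the setting. Of 34 lower and 4 higher chromatin spots, a threshold of 0.05 gave 59 and 19, the dye as a coefficient 66 and 21, array weights 54 and 13, and control spots included 11 and 2. Of 18 lower and 3 higher chromatin genes the first 3 of these settings gave 34 and 9, 34 and 10, and 29 and 7. Control spots carry no gene name and enter no gene value, so that including them could not change a gene count. For the partner genes, 10 lower and 13 higher, the first 3 settings gave 22 and 28, 20 and 25, and 19 and 20. With 1 array left out, so that 2 remained, lower chromatin spots ranged from 2 to 56 and higher from 0 to 16, lower genes from 2 to 28 and higher from 0 to 6, and lower partners from 3 to 21 and higher from 3 to 21. The highest counts came without array 3 and the lowest without array 2, which lower genes and lower partners shared with array 1. Without array 2 the unadjusted p was under 0.05 for 8 higher and 30 lower chromatin genes, which was not counted over all genes. All tested spots moved likewise, with 18.2% passed in the fit reported, 40.4% with the dye as a coefficient, 31.9% with array weights, 6.71% with control spots, 2.14% without array 2 and 37% without array 3. The cause was not tested.

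Centring, scaling, quantile normalisation, the robust prior and the median of spots left every chromatin count within 1.5 times. The direction of 1 gene turned: Hdac3 was at -0.10 without the shifted positions (adjusted p = 0.147) and at -0.10 without the added collections (adjusted p = 0.148), because its high spot is then gone. The single spot of Kdm1b did not pass when the arrays were centred, scaled or quantile-normalised or with the robust prior, and Kdm4a did not pass with the robust prior (adjusted p = 0.00522) or without the added collections (adjusted p = 0.00512). No paired analysis was possible because each ratio already pairs 1 culture of each side and the arrays form 1 group.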

Other observations

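Histone chaperones and DNA methylation readers lie outside the families above. Of 15 measured chaperone genes, Asf1a, which hands histones H3 and H4 to the assembly factors, rose (0.60 ± 0.04, adjusted p = 0.000589), as did Set (0.43 ± 0.09, adjusted p = 0.00253), with 13 that did not pass. The chaperones thus had 13.3% higher, against 12.4% of all genes. None fell in limma, against 10.3% of all genes, and 2 were lower at an unadjusted p under 0.05. Of 9 measured genes for DNA methylation readers, TET enzymes and sirtuins, Mbd1, a methyl-CpG-binding protein, rose (0.77 ± 0.07, adjusted p = 0.000408) and none fell (0 at an unadjusted p under 0.05). These shares were 11.1% higher and 0% lower, against 12.4% and 10.3% of all genes.

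Spots annotated with several genes were not counted in the families, and 3 of them carried a chromatin name. The spot of Kdm1b and Dek read -0.65, -0.50 and -0.23 (mean -0.46 ± 0.22, adjusted p = 0.0135), on the same side of 0 as the spot of Kdm1b alone. The spot of Kat2b and Cmas averaged 0.04 ± 0.17 and that of Gnpda1 and Hmgb1 -0.06 ± 0.08, and neither passed.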
